A study of Mus musculus with 7 samples.

Results

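The genes described here are 33 genes of fatty acid oxidation, listed by symbol and chosen without reference to a threshold. A gene was taken as measured where a probe set of the deposited array table carried its symbol, and where several did, the brightest over the 7 arrays served. By this rule 29 of the 33 genes were measured, among 19505 named genes in all. The other 4, Acsl1, Acsl3, Etfb and Ppard, were not analysed here. RNA came from type 1 conventional dendritic cells (cDC1), the subset that cross-presents antigen to CD8 T cells, sorted from spleens of C57BL/6 mice. The mice all bore tumors of B16-OVA, melanoma cells of mouse origin that express ovalbumin. The labels give 3 arrays from WT mice and 4 from CD11c-Cre; OPA1 flox mice, called KO here. In the latter a CD11c promoter drives Cre, so recombination is directed to CD11c-expressing cells at large and not to cDC1 alone. OPA1 fuses the inner mitochondrial membrane and shapes the cristae, and the comparison asks what its loss does to the RNA of these cells. The age of the mice, the alleles carried by WT mice, and whether arrays came from separate mice are not given in the labels. The p-values therefore measure the spread between arrays, which may be technical in part.

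Fatty acids are burned in mitochondria by beta-oxidation, a cycle that shortens an acyl-CoA from its carboxyl end and passes electrons to the respiratory chain. Acyl-CoA synthetases activate the fatty acid, the carnitine shuttle carries long chains across the inner membrane, and dehydrogenases, hydratases and thiolases run the cycle. Peroxisomes run a related cycle on very long and branched chains, and PPAR nuclear receptors control transcription of many of these genes. In dendritic cells fatty acid oxidation has been studied mainly in relation to tolerance and activation.

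Arrays are named throughout as labelled. Opa1, the targeted gene, read 8.14, 8.80 and 9.15 across WT 1 to 3 against 7.70, 7.10, 6.85 and 8.24 across KO 1 to 4, in log2 units, so KO 4 lay above WT 1. Where the Opa1 probes lie relative to the floxed part was not analysed here, so these values check the labels only in part. WT 1 and WT 2 stood apart from the other 5 arrays. Relative to the KO mean, the mean of 22 melanocyte markers stood at 3.32, 3.60 and 0.96 for WT 1 to 3, and 21 of the 22 had a lower mean in KO. The mean of 13 cDC1 markers stood at -0.98, -2.48 and -0.07. WT 1 and WT 2 were not alike in all markers. The mean of 10 markers of type 2 conventional dendritic cells stood at -0.21, 1.62 and 0.33 for WT 1 to 3. That of 10 monocyte and macrophage markers stood at 0.01, 1.54 and 0.65, so both lists were highest on WT 2. Of the defining cDC1 markers, Cd8a read 7.89 and 6.96 on WT 1 and WT 2 against 11.95 to 12.12 on the other 5 arrays. Xcr1 read 7.97 on WT 2 and 12.12 or more elsewhere. In such bulk RNA a smaller share of cells of a type and less RNA per cell cannot be told apart. Every result below that follows WT 1 and WT 2 therefore moves together with the melanocyte and cDC1 markers. The part of any of these cell types in it was not tested.

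At the adjusted threshold of 0.05 no fatty acid oxidation gene was called in the KO minus WT comparison (limma, Benjamini-Hochberg over all genes, smallest adjusted p = 0.223), and neither did any of the 19505 genes (percent called 0). At an unadjusted p under 0.05 there were 7 of 29, 4 lower and 3 higher in KO, where 19.6% of all genes reached that level, 10.6% lower and 8.98% higher. The 4 lower were Crat, Hadh, Eci1 and Ehhadh, and the 3 higher were Cpt1a, Acox3 and Ppara. KO and WT arrays did not overlap in 4 of 29 genes, all higher in KO (Cpt1a, Acox3, Acaa1a and Ppara), against 13.8% of all genes in either direction and 7.85% in that direction. The 95th percentile of the negative controls lay between 9.37 and 10.19 on the 7 arrays, so some control probe sets were as bright as many of the 29 genes. The median difference, KO minus WT, was -0.06 over the 29 genes and 0.06 over all genes. A lower mean in KO was found in 17 of the 29 and in 40.1% of all genes. With each array centred on its median the median over the 29 genes was -0.0023, and with quantile normalization it was 0.0080, so no direction is given for the group. Differences of at least 0.5 log2 in size occurred in 4 of 29 genes (Crat, Hadh, Acox3 and Ehhadh), against 14.2% of all genes.

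**Figure D1:**
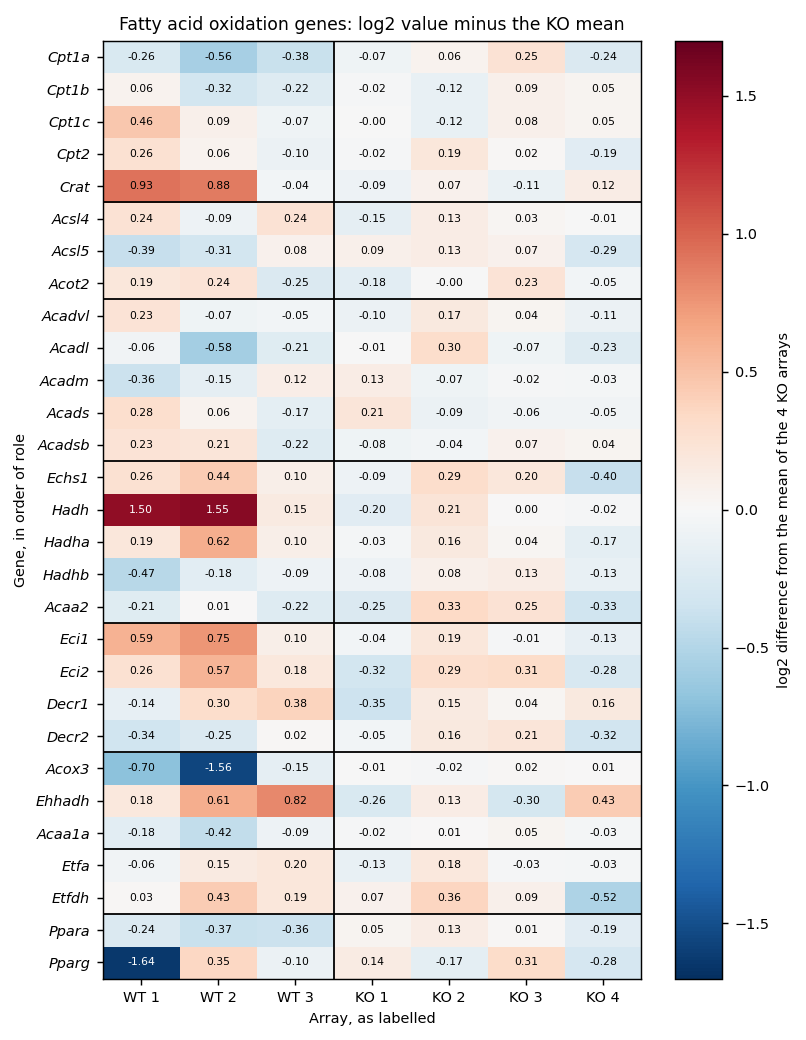
Log2 value of each of the 29 genes on each array minus the mean of the 4 KO arrays, with genes in order of role (rows, separated by lines) and arrays in columns. Strong colours sit on WT 1 and WT 2 for Hadh, Crat and Acox3 and on WT 1 for Pparg, while WT 3 stays within 0.25 of the KO mean in 25 of 29 genes.

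The carnitine shuttle moves long-chain acyl groups into the matrix. Cpt1a encodes the outer membrane transferase that commits fatty acids to oxidation and is inhibited by malonyl-CoA. It read 10.55, 10.25 and 10.43 across WT 1 to 3 against 10.75, 10.87, 11.06 and 10.57 across KO 1 to 4. The groups were separate, with KO 4 and WT 1 nearest to each other. The difference was 0.40 (SE 0.140, 95% interval 0.08 to 0.73, limma adjusted p = 0.224). It was 0.38 without WT 1 and WT 2, the arrays that stand apart, and 0.41 without WT 3. The former value rests on WT 3 alone, which gives no measure of the spread among WT arrays. WT 3 also had 0.96 in the melanocyte list. Cpt1a is measured by probe set TC1900000008.mm.2. Its upstream sequence is shown because this is the shuttle gene whose groups do not overlap; RefSeq places these 250 bases before the start of the gene at chr19:3323051-3323300 (GRCm38.p6, plus strand), and the capitals mark TGACCT, the nuclear receptor core motif AGGTCA read from the opposite strand.
Cpt1a: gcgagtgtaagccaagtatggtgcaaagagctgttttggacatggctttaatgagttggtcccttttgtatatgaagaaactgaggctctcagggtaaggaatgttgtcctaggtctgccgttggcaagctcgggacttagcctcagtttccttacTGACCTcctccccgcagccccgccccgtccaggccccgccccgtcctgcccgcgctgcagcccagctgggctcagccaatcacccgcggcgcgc

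Cpt1b, the isoform of muscle, averaged 7.40 ± 0.20 across WT (SD, n = 3) against 7.56 ± 0.09 across KO (SD, n = 4). Cpt1c, the brain isoform with little transferase activity, read 8.68 ± 0.27 and 8.52 ± 0.09. Neither passed the test, with limma adjusted p of 0.454 and 0.513. Cpt2, which re-forms acyl-CoA inside the inner membrane, differed by -0.07 with a 95% interval of -0.37 to 0.23. Crat, which transfers acetyl and other short groups to carnitine, gave another pattern. It read 9.47 and 9.42 on WT 1 and WT 2, 8.49 on WT 3 and 8.45, 8.61, 8.43 and 8.66 across KO 1 to 4. WT 3 thus lay inside the KO range and the group difference of -0.59 (SE 0.232, limma adjusted p = 0.238) came from WT 1 and WT 2, the arrays high in melanocyte markers. Without them it was 0.04.

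Acsl4 and Acsl5 encode long-chain acyl-CoA synthetases, the former with a preference for arachidonate. Acsl4 averaged 10.82 ± 0.19 across WT (SD, n = 3) against 10.69 ± 0.12 across KO (SD, n = 4). Acsl5 read 10.91 and 10.99 on WT 1 and WT 2, and 11.38 on WT 3. On KO 1 to 3 it read 11.37 to 11.42, and on KO 4 11.01, so KO 4 sat with WT 1 and WT 2. Acot2, a mitochondrial thioesterase that hydrolyses acyl-CoA, differed by -0.06 (95% interval -0.42 to 0.30); it has near-identical paralogs, so its probe set may not be specific.

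The acyl-CoA dehydrogenases catalyse the opening oxidation of the cycle, each for its own chain length. None of the 5 measured had an unadjusted p under 0.05, and their differences ran from -0.08 for Acadsb to 0.28 for Acadl. Acadvl, for very long chains, averaged 9.79 ± 0.17 across WT (SD, n = 3) against 9.76 ± 0.13 across KO (SD, n = 4). Acadm, for medium chains, read 9.96 ± 0.24 and 10.09 ± 0.09, and Acads, for short chains, 9.25 ± 0.23 and 9.19 ± 0.14. The 95% intervals of Acadvl, Acadm, Acads and Acadsb, an enzyme of branched-chain acyl-CoA, all lay within 0.5 log2 either way. That of Acadl, the long-chain enzyme, reached 0.67. Acadl was lowest on WT 2, at 9.51, and highest on KO 2, at 10.39.

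Hadh showed the largest difference of the 29 genes. It encodes the mitochondrial enzyme that oxidises medium and short hydroxyacyl-CoA. Its probe set, TC0300002955.mm.2, read 9.98 and 10.03 on WT 1 and WT 2, 8.63 on WT 3 and 8.28, 8.69, 8.48 and 8.46 across KO 1 to 4. WT 3 lay between KO 2 and KO 3, and WT 1 and WT 2 lay above all others. The difference was -1.07 (SE 0.326, 95% interval -1.82 to -0.31, limma adjusted p = 0.223). It was -1.53 without WT 3 (adjusted p = 7.56e-05) and -0.15 without WT 1 and WT 2 (adjusted p = 0.933). WT 1 and WT 2 also had the high melanocyte and low cDC1 markers given above.

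Hadha and Hadhb encode the alpha and beta subunits of the trifunctional protein, the membrane complex that carries out the last 3 steps of the cycle on long chains. Hadha read 10.52, 10.94 and 10.42 across WT 1 to 3 against 10.30, 10.49, 10.36 and 10.15 across KO 1 to 4. Hadhb read 9.90, 10.19 and 10.28 across WT 1 to 3 against 10.29, 10.45, 10.50 and 10.24 across KO 1 to 4. WT 1 and WT 2 were thus above the other 5 arrays for Hadha and below them for Hadhb. The differences were -0.30 (95% interval -0.65 to 0.04, limma adjusted p = 0.290) and 0.25 (-0.05 to 0.54, adjusted p = 0.300). That of Hadha was -0.14 without WT 2, and that of Hadhb was 0.14 without WT 1. Without WT 1 and WT 2 they were -0.10 and 0.09. Within an array, the log2 value of Hadha minus that of Hadhb was 0.61, 0.76 and 0.14 across WT 1 to 3 against 0.01, 0.04, -0.14 and -0.09 across KO 1 to 4. All 3 WT values of this pair, which was chosen after its values were seen, lay above all 4 KO values, WT 3 by the least. A constant offset between the probe sets is part of each such value, so they give no level. Whether the pair changed unequally was not tested.

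In RefSeq the pair is transcribed in opposite directions from start sites 273 bases apart. The stretch common to both upstream windows is shown because the subunits share it; it lies at chr5:30155003-30155230 (GRCm38.p6, plus strand), with Hadhb starting to its right and Hadha to its left. None of the motif letters searched here were in it, so it has no capitals.
Hadha and Hadhb: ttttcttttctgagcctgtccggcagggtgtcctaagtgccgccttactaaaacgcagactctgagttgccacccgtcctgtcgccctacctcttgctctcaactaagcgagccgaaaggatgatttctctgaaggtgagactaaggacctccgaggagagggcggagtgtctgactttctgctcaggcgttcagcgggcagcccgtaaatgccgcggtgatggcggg

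Echs1, the short-chain enoyl-CoA hydratase, averaged 10.13 ± 0.17 across WT (SD, n = 3) against 9.86 ± 0.31 across KO (SD, n = 4). Acaa2, the mitochondrial thiolase, read 9.92 ± 0.13 and 10.06 ± 0.34. For both the KO arrays spread more widely than the WT arrays, a pattern taken up below.

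Unsaturated fatty acids need isomerases and a reductase before the cycle can proceed. Eci1, a mitochondrial enoyl-CoA isomerase, read 10.56, 10.72 and 10.06 across WT 1 to 3 against 9.93, 10.16, 9.95 and 9.83 across KO 1 to 4. As for Hadh and Crat, WT 3 lay inside the KO range. Its difference of -0.48 (SE 0.168, limma adjusted p = 0.224) was -0.67 without WT 3 (adjusted p = 0.00508) and -0.10 without WT 1 and WT 2. Eci2, an isomerase found in peroxisomes and mitochondria, averaged 9.90 ± 0.21 across WT (SD, n = 3) against 9.56 ± 0.34 across KO (SD, n = 4) and did not pass. Decr1, the mitochondrial dienoyl-CoA reductase, read 5.92 to 6.65 and lay under the median of the negative control probe sets of the same array on 6 of 7 arrays, so its difference of -0.18 says little about expression. Decr2, its peroxisomal counterpart, differed by 0.19 with a 95% interval of -0.18 to 0.56.

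Besides Eci2 and Decr2, given above, 3 genes were grouped as peroxisomal enzymes. Acox3, an acyl-CoA oxidase for branched chains, read 11.18, 10.32 and 11.73 across WT 1 to 3 against 11.87, 11.86, 11.90 and 11.88 across KO 1 to 4. The KO arrays were nearly identical and all WT arrays lay below them, WT 2 by most. The difference of 0.80 (SE 0.285, 95% interval 0.14 to 1.46, limma adjusted p = 0.224) was 1.13 without WT 3 (adjusted p = 0.00420), 0.42 without WT 2 and 0.15 without WT 1 and WT 2. Among the WT arrays Acox3 was lowest on WT 2 and highest on WT 3, the same order as for the mean of the cDC1 markers. That order was the reverse of the one for the melanocyte markers. What part either kind of cell has in it was not tested. Acaa1a, a peroxisomal thiolase with a near-identical paralog, read 9.71, 9.47 and 9.81 across WT 1 to 3 against 9.86 to 9.94 in KO. Its groups did not overlap, with WT 2 again lowest, and the difference was 0.23 (limma adjusted p = 0.271). It was 0.13 without WT 2 and 0.09 without WT 1 and WT 2.

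Ehhadh, the peroxisomal bifunctional enzyme, was the gene in which WT 3 differed most from KO. It read 6.94, 7.38 and 7.58 across WT 1 to 3 against 6.51, 6.89, 6.46 and 7.20 across KO 1 to 4. WT 2 and WT 3 lay above all KO arrays, while KO 4 lay above WT 1. The difference was -0.54 (SE 0.222, limma adjusted p = 0.247) with all arrays and -0.82 without WT 1 and WT 2 (unadjusted p = 0.017, adjusted p = 0.832). On 2 of 7 arrays it lay under the median of the negative controls, which ranged from 6.19 on WT 1 to 6.88 on KO 1 and KO 4, so this is a dim signal.

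The electron transfer flavoprotein and its dehydrogenase carry electrons from the acyl-CoA dehydrogenases to ubiquinone. Etfa, the alpha subunit, averaged 11.12 ± 0.14 across WT (SD, n = 3) against 11.02 ± 0.13 across KO (SD, n = 4). Etfdh, the dehydrogenase, read 8.47 ± 0.20 and 8.26 ± 0.37, with KO 4 lowest at 7.73. Both had limma adjusted p above 0.5.

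Of the PPAR receptors, Ppara is the principal activator of fatty acid oxidation genes in liver and Pparg the regulator of adipocyte differentiation. Ppara read 7.31, 7.18 and 7.19 across WT 1 to 3 against 7.60, 7.68, 7.57 and 7.36 across KO 1 to 4. The groups did not overlap, though KO 4 lay only just above WT 1. The difference of 0.33 (SE 0.108, 95% interval 0.08 to 0.58, limma adjusted p = 0.223) was 0.31 without WT 3 and 0.36 without WT 1 and WT 2 (adjusted p = 0.834). Over all settings tried the difference ranged from 0.28 to 0.39 for Ppara and from 0.32 to 0.48 for Cpt1a, and from -0.82 to -0.37 for Ehhadh. Ppara and Ehhadh were dim enough to be left out in the setting that removes dim genes. Negative control medians averaged lower in WT than in KO, and for a gene as dim as Ppara their part in the difference was not tested. Pparg read 7.03, 9.03 and 8.58 across WT 1 to 3 against 8.39 to 8.98 in KO. WT 1 alone was low, and the interval of the difference, -0.53 to 1.45, was the widest of the 29. The difference of 0.46 was -0.13 without WT 1 and 0.87 without WT 2, and 0.10 without both.

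The 250 bases before the start of Ppara are shown beside those of Cpt1a. Both genes had non-overlapping groups and differences of similar size with and without WT 1 and WT 2. The values without them, 0.36 for Ppara and 0.38 for Cpt1a, rest on WT 3 alone. WT 3 lay below the KO range in 24.2% of all genes. The Ppara bases lie at chr15:85735526-85735775 (GRCm38.p6, plus strand, from RefSeq), and the capitals mark the palindromic core of the NRF1 element.
Ppara: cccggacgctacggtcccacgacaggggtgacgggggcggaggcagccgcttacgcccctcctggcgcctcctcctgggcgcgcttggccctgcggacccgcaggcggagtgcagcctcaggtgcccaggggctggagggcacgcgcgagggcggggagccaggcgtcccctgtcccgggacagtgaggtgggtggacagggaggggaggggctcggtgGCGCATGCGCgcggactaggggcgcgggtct
RefSeq windows were found for 29 of the 33 genes, 32 windows in all, and both strands of the 250 bases before the start were searched. The PPAR response element, written as a direct repeat of AGGTCA with any 1 base between the copies, was in 0 of the 32 and in 0.0335% of all 32817 windows; with 1 mismatch allowed it was in 0 and in 0.485%. The core motif AGGTCA by itself, which is part of that element, was in 7 of 32 windows (21.9%, those of Acadm, Acadvl, Cpt1a, Cpt1c, Echs1 and 2 of Pparg) and in 14% of all. The ERR element TCAAGGTCA, which contains the core motif, was in 0 of 32 and 0.387% of all, and the NRF1 element was in 2 of 32 (Etfdh and Ppara) and 0.777% of all. These are matches of letters and do not show binding. Counts of 0 in 32 windows do not show a lack of elements this rare.

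**Figure D2:**
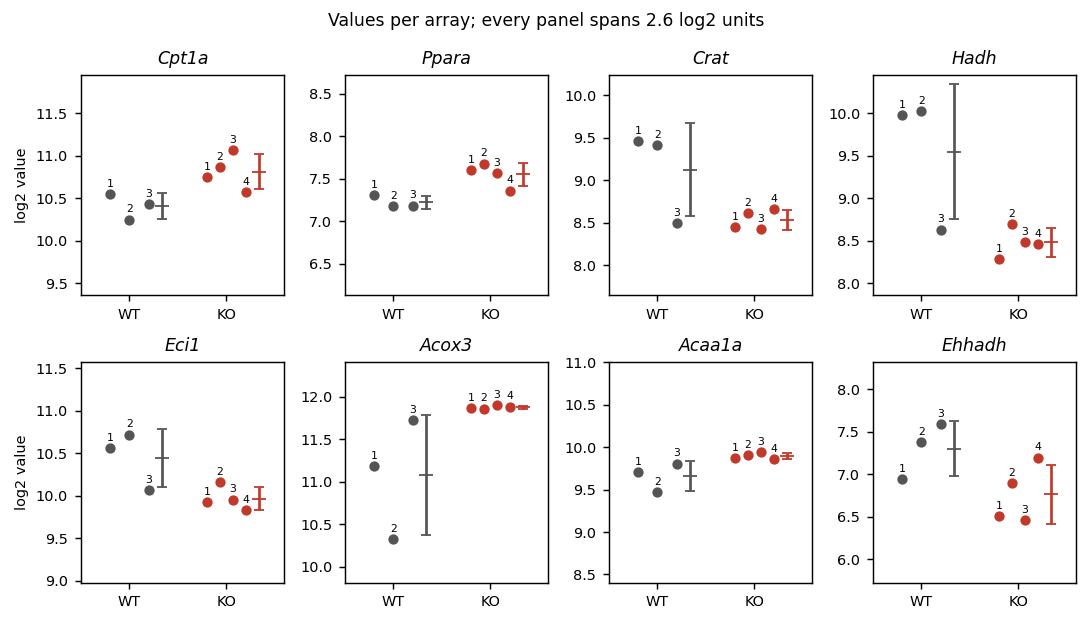
Log2 values per array (points, numbered as labelled) for the 8 genes with an unadjusted p under 0.05 or with groups that do not overlap; the bar beside each group is its mean ± SD (WT n = 3, KO n = 4), and all panels span the same height. For Cpt1a and Ppara all 3 WT arrays lie below KO, with WT 1 close to KO 4. For Crat, Hadh and Eci1 WT 3 lies with the KO arrays, and for Acox3 WT 1 and WT 2 lie below the rest.

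The dependence on WT 1 and WT 2 could be followed gene by gene. Both lay above the other 5 arrays in 6 of 29 genes (Cpt1c, Crat, Acadsb, Hadh, Hadha and Eci1), where 19.4% of all genes showed this. Both lay below the other 5 in 5 of 29 (Acsl5, Acadm, Hadhb, Acox3 and Acaa1a), against 22% of all genes. WT 3 lay inside the range of the 4 KO arrays in 17 of 29 genes, below it in 8 and above it in 4, where 42.3% of all genes lay outside. Without WT 3, which leaves WT 1 and WT 2 against KO, 4 of 29 genes were called (Crat, Hadh and Eci1 lower, Acox3 higher in KO; limma adjusted p under 0.05), against 25.3% of all genes, 13.8% lower and 11.4% higher. Weighting arrays by their fit called the same 4 genes and Hadhb (0.40, limma adjusted p = 0.0434), 5 of 29 against 22.9% of all genes. Without WT 1 and WT 2 no gene of the 29 was called, 1 (Ehhadh) had an unadjusted p under 0.05 against 5.92% of all genes, and 10 of 29 differences changed sign. That fit takes the spread of its single WT array from the KO arrays. The share of all genes that changed sign in it was not examined.

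**Figure D3:**
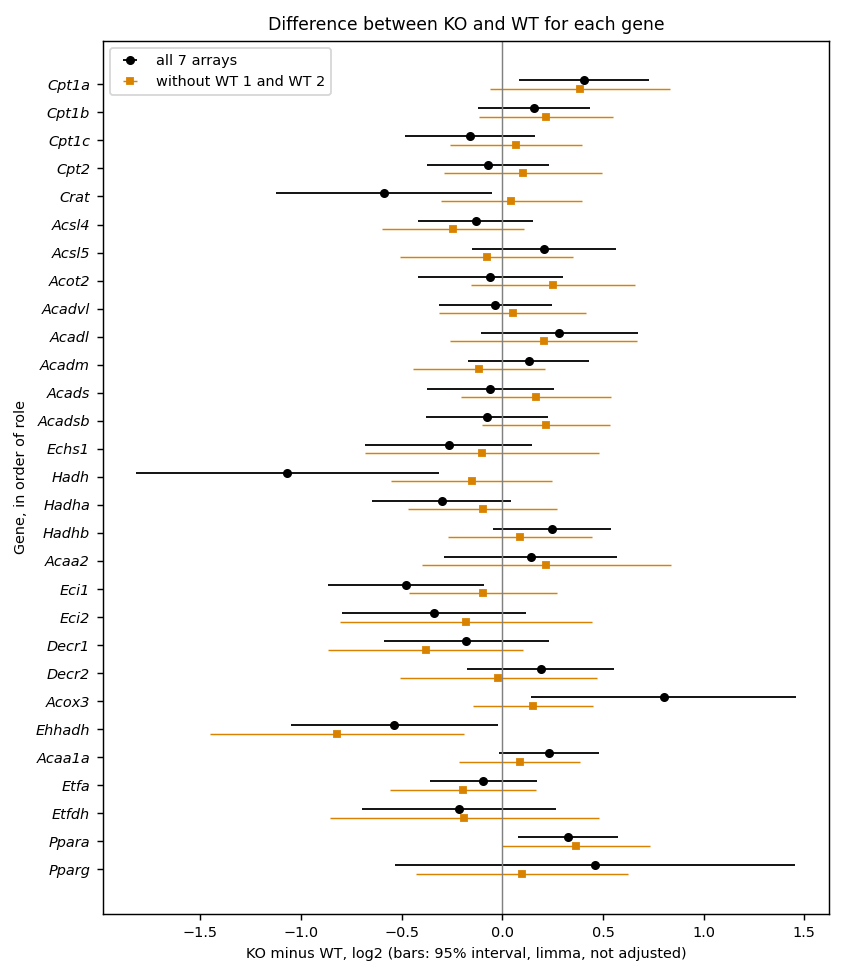
KO minus WT difference in log2 units for each gene, with 95% intervals from limma, not adjusted, for all 7 arrays (black circles) and without WT 1 and WT 2 (orange squares). The differences of Hadh, Crat, Eci1 and Acox3 shrink toward 0 in the latter, those of Cpt1a and Ppara stay between 0.33 and 0.40, and that of Ehhadh widens to -0.82.

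The KO arrays also differed among themselves. KO 1 and KO 4 both read lower than KO 2 and KO 3 in 16 of 29 genes, where 24% of all genes did, and both read higher in 1 (Acads), against 19% of all genes. Acaa2 read 9.81 and 9.72 on KO 1 and KO 4 but 10.39 and 10.30 on KO 2 and KO 3. Eci2 read 9.24 and 9.28 against 9.85 and 9.87, and Echs1 9.77 and 9.47 against 10.16 and 10.06. For these 3 genes the range among KO arrays exceeded the size of the difference between KO and WT. The same held for most of the 29 genes, such as Cpt1a (0.49 against 0.40) and Ehhadh (0.74 against 0.54). The mean over the 29 genes, relative to the KO mean, was -0.06, 0.11, 0.07 and -0.11 across KO 1 to 4, and 0.03, 0.08 and -0.0010 on WT 1 to 3. KO 1 and KO 4 also had the higher Opa1 values of the 4 KO arrays and the highest medians of the negative controls, 6.88 on each, against 6.49 and 6.67 on KO 2 and KO 3. The pattern was noticed after the values had been seen, and its relation to either measure was not tested.

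Genes that supply or regulate the pathway were taken from 10 lists, none of which held a gene past the adjusted threshold. In the list of carnitine supply and malonyl-CoA control 0 genes were lower and 1 of 10 higher in KO at an unadjusted p under 0.05; over all genes 10.6% were lower and 8.98% higher at that level, which the counts of the other lists are read against. That gene, Slc22a5, the carnitine transporter of the plasma membrane, read 9.16, 8.94 and 10.21 across WT 1 to 3 against 10.13 to 10.52 in KO, with WT 3 inside the KO range. Of 17 genes of fatty acid uptake and binding 4 were lower and 2 higher. Fabp5, a fatty acid binding protein, read 11.37, 12.10 and 9.54 across WT 1 to 3 against 8.21, 8.31, 8.42 and 8.93 across KO 1 to 4. All WT arrays lay above KO, WT 3 by the least, and the difference was -2.54 (limma adjusted p = 0.223). Fabp3 differed by -0.75, also with no overlap, and Fabp7 by -2.41 with overlap.

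Of 18 genes of lipid droplets and lipolysis 3 were lower and 2 higher. Mgll, which releases the last fatty acid of a triglyceride, read 9.28, 9.75 and 8.45 across WT 1 to 3 against 7.61 to 8.07 in KO, with no overlap and a difference of -1.25. Bscl2, or seipin, a protein of droplet formation, differed by 0.71 and Plin3, a droplet coat protein, by -0.73. Among 19 genes listed as other mitochondrial enzymes of acyl-CoA oxidation, a label not checked gene by gene, 3 were lower and 1 higher. In this list 14 had a lower mean in KO, against 40.1% of all genes. The median of the list, -0.26, was -0.11 without WT 2, -0.11 without KO 1, -0.15 without KO 4 and 0.0016 without WT 1 and WT 2. Echdc1 differed by -0.81 with no overlap, Acad11 by -0.71 and Ivd by 0.36. Of 14 other peroxisomal genes 0 were lower and 3 higher, namely Acot8 by 0.36 with no overlap, Scp2 by 0.63 and Abcd2 by 0.52. Among 21 other synthetases and thioesterases 1 was lower (Acsl6, -0.53) and 1 higher (Acsbg2, 0.36). Of 5 genes listed under flavin supply, a label also not checked gene by gene, 1 was lower, Etfrf1, by -0.31.

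PPAR partners and coactivators had 3 of 17 lower and 2 higher. Ppargc1a, a coactivator of mitochondrial gene expression, read 11.71, 12.02 and 7.97 across WT 1 to 3 against 7.18 to 7.37 in KO, so WT 3 lay nearer to KO than to WT 1 and WT 2 and still above every KO array. Prkaa2, a catalytic subunit of AMP kinase, read 8.92, 9.15 and 6.04 across WT 1 to 3 against 5.80 to 6.19 in KO. Rxrb, a partner of PPAR, read 10.31, 10.24 and 10.25 across WT 1 to 3 against 10.66, 10.76, 10.62 and 10.34 across KO 1 to 4, with no overlap. Its WT arrays were close together. As for Cpt1a and Ppara, KO 4 was the KO array nearest to WT. Of 14 PPAR target genes outside the 29, 12 had a higher mean and 2 a lower mean in KO, where 40.1% of all genes had a lower mean. Their median difference was 0.19 beside 0.06 over all genes, 0.096 without WT 2 and 0.11 without WT 1 and WT 2. At an unadjusted p under 0.05, 0 were lower and 3 higher (Cd36, Fgf21 and Cyp4a14), against 10.6% and 8.98% of all genes. Cyp4a14 read 6.10 to 6.21 in WT and 6.24 to 6.54 in KO. On every array it lay under the median of the negative controls, so its difference says little about expression. In all, 3 of the 14 genes lay under that median on all 7 arrays, and the part of the controls in these counts was not tested. Cd36, counted in the uptake list too, is a fatty acid translocase and also a marker of splenic CD8a cDC1; it read 9.55, 8.77 and 11.49 across WT 1 to 3 against 11.31 to 11.51 in KO, and so followed the cDC1 markers.

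**Figure D4:**
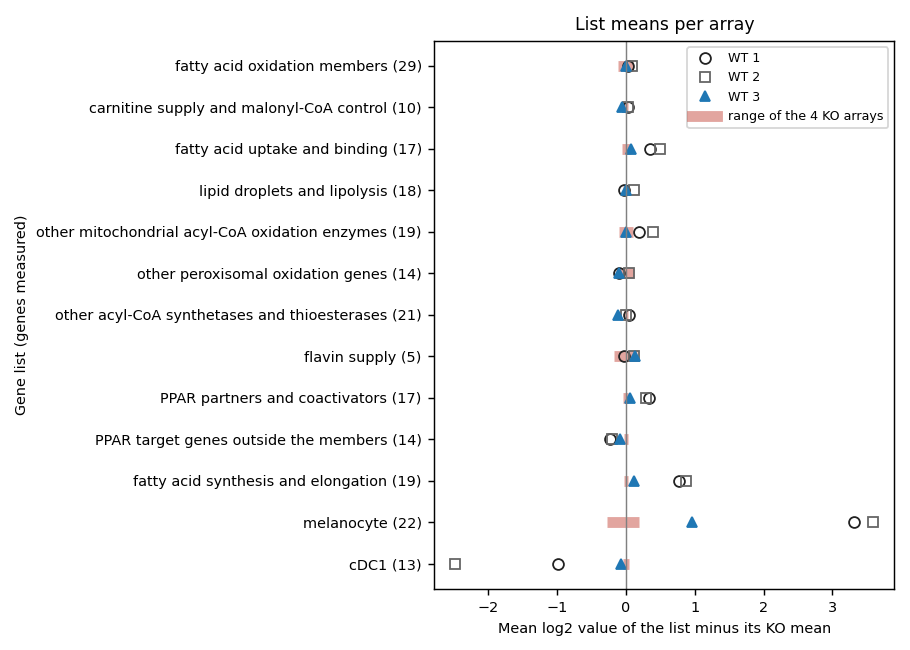
Mean log2 value of each gene list minus its mean over the KO arrays, for WT 1, WT 2 and WT 3 (symbols) and for the 4 KO arrays (bar from lowest to highest), with the number of genes measured in parentheses. The fatty acid oxidation genes stay within 0.11 of 0 on all arrays, while the melanocyte list stands at 3.32 and 3.60 on WT 1 and WT 2 and the cDC1 list at -0.98 and -2.48.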

How the data were processed

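Per the submitters' processing notes, RMA in Affymetrix Expression Console 1.1 gave the log2 values that the authors deposited, for 28846 probe sets on each of 7 arrays. The log2 scale fits the range, 3.68 to 14.28; the set of arrays normalized jointly is unstated, and RMA compresses dim signals. Of 22206 transcript probe sets, 19572 had 1 gene symbol in the platform annotation, 0 had several and 2634 none; keeping the brightest per symbol left 19505 genes. KO was compared with WT in limma 3.58.1 (R 4.3.3), with no covariate and Benjamini-Hochberg adjustment over all genes; no exact two-sided permutation of 3 against 4 arrays can go below p = 0.0571. The median of 5222 negative control probe sets marked dim signals. The number of arrays limits precision. All 33 genes are named; values per array are given for those with an unadjusted p under 0.05, no overlap or a difference of at least 0.5, and for others singled out after their values were seen. Up to 3 genes per pathway list are named by smallest p. The 33 genes and the lists were chosen with earlier results of these data known. In simulated data for this comparison (19505 genes, 200 changed), limma recovered 68% of the genes shifted by 1 log2 and 91% of those shifted by 2 log2, beside 9 false positives. The simulated noise was independent between genes and arrays, whereas WT 1 and WT 2 departed together in many genes of the real data. These shares therefore do not measure the power of the real comparison. There Tyr, a melanocyte marker, differed by -4.28 and was not called (limma adjusted p = 0.223). Alternatives left out each array, or WT 1 with WT 2, or used the replicate block, median centring, quantile normalization, no dim genes, a trended robust variance, array weights or all probe sets of a gene.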

Additional observations from a re-analysis of the deposited data

Results flagged for a closer look

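In 2 of the 29 genes 1 of the 4 KO arrays stood far from the other 3 relative to the range of the group; chance gives about 1 in 20, or 1.45 of 29. Acsl5, a long-chain acyl-CoA synthetase, read 11.01 on KO 4 against 11.37 to 11.42 on the other KO arrays. Acads, the short-chain acyl-CoA dehydrogenase, read 9.40 on KO 1 against 9.10 to 9.14 on the others. Groups of 3, such as WT, were not examined in this way, so WT 1 in Pparg is not covered.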

How the results depend on the processing

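Direction was the same in all alternatives run for 17 of 29 genes, including Cpt1a, Ppara, Hadh, Eci1, Acox3 and Ehhadh. That of Crat was turned without WT 1 and WT 2. In that setting Hadh, Eci1 and Acox3 kept their sign at only -0.15, -0.10 and 0.15. Most alternatives reused the same arrays, and the share of all genes with the same direction throughout was not examined. Genes called among all 19505 numbered 0 with all arrays; leaving out single arrays gave 0 to 4931 (the latter without WT 3), and array weights, which gave WT 3 the lowest weight, 4458. Genes of the 29 at an unadjusted p under 0.05 numbered 7, beside 19.6% of all genes. Leaving out single arrays gave from 3 without WT 2 (8.29% of all genes) to 10 without WT 3 (36.9%). Array weights gave 12, beside 36.1% of all genes. With these weights Crat, Hadh, Hadhb, Eci1 and Acox3 were called, beside 22.9% of all genes. Genes without overlap numbered 4, beside 13.8% of all genes, and 4 to 13 for single arrays, where the share over all genes was not examined. Without WT 1 and WT 2, where 1 WT array remains, they numbered 12, beside 42.3% of all genes. The median difference ranged from -0.078 to 0.0058 for single arrays (above 0 without WT 1), and was 0.051 without WT 1 and WT 2 and 0.0080 with quantile normalization. Genes lower in KO numbered 13 to 17 for single arrays and 13 without WT 1 and WT 2. Centring turned the split at an unadjusted p under 0.05 from 4 lower and 3 higher to 3 and 4, and quantile normalization to 3 and 5. Of all genes 22.6% and 21.0% reached that level in these settings. Same-numbered WT and KO arrays had correlations of their deviations from the group means of -0.04, 0.05 and -0.02, so the numbers were not taken as pairing the samples. With the replicate block, which in effect drops KO 4, 7 of the 29 genes had an unadjusted p under 0.05, beside 12.8% of all genes. The smallest limma adjusted p among the 29 was then 0.389. No PPAR element was gained with 1 mismatch. Such a match was in 0.485% of all windows, so 32 windows are too few to show a lack of it. The causes of the changes between alternatives were not tested.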

Other observations

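Fatty acid synthesis and elongation is the opposite pathway. Of 19 measured genes 9 were lower and 1 higher in KO at an unadjusted p under 0.05, where 10.6% of all genes were lower and 8.98% higher, and no gene of the list passed the adjusted threshold. The median difference was -0.37 with all arrays and -0.067 without WT 1 and WT 2. The list mean, relative to KO, was 0.77, 0.88 and 0.12 for WT 1 to 3. Me1, the malic enzyme that supplies NADPH, read 10.36, 10.84 and 6.71 across WT 1 to 3 against 5.79 to 6.40 in KO. Fads2, a fatty acid desaturase, read 12.59, 12.51 and 9.75 across WT 1 to 3 against 9.31 to 9.65 in KO. Elovl7, an elongase, read 7.98, 8.63 and 6.31 across WT 1 to 3 against 5.69 to 6.30 in KO. In these 3 genes WT 3 lay only just above the highest KO array, on the side of WT 1 and WT 2. For Elovl7, WT 3 and every KO array lay under the negative control median of the same array. For Me1 every KO array did, and WT 3 lay at its control median of 6.71. The order of WT 3 and KO in Elovl7 and Me1 therefore says little about expression. WT 3 also had 0.96 in the melanocyte list, and the part of such cells was not tested.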
